A study of Mus musculus with 18 samples.

Results

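Signals of the haematopoietic growth factor receptor genes Flt3, Kit, Csf1r, Csf2ra, Csf2rb and Csf3r were compared across 3 mouse spleen dendritic cell populations. The members are all probe sets, the short-oligonucleotide groups that each report 1 signal, on the U74A, U74B and U74C arrays whose platform annotation gives 1 of these symbols. They came to 11 probe sets of 6 genes, of 36701 probe sets and 15964 genes on the arrays, and 8 of the 11 passed the filter on low signals. At least 1 probe set of each of the 6 genes was among those 8. By Entrez Gene number the genes are Flt3 (14255), Kit (16590), Csf1r (12978), Csf2ra (12982), Csf2rb (12983) and Csf3r (12986).

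The study profiled a cell type named interferon-producing killer dendritic cell (IKDC) beside plasmacytoid (PDC) and conventional (cDC) dendritic cells, the cDC being its control. All cells came from mouse spleen, with 2 biological samples prepared separately for each population and each sample run on the 3 array types, 18 arrays in all. Strain, age, treatment, the sorting gates and whether the 2 samples came from separate animals are not given in the sources used here. As a consequence, p-values measure only the spread between these samples, which may be technical.

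Flt3, Kit and Csf1r encode receptor tyrosine kinases for FLT3 ligand, stem cell factor and macrophage colony-stimulating factor (M-CSF). Csf2ra and Csf2rb encode the ligand-binding and the signalling chain of the receptor for granulocyte-macrophage colony-stimulating factor (GM-CSF), and Csf3r encodes the receptor for granulocyte colony-stimulating factor (G-CSF), all of which signal through Janus kinases. FLT3 signalling is needed for the development of both conventional and plasmacytoid dendritic cells, and Kit is known from haematopoietic progenitors, mast cells and some innate lymphocytes. Many of these genes are known targets of the transcription factor PU.1, encoded by Spi1.

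The upstream sequences of 3 receptors are shown because each was called in a different set of comparisons and Spi1 itself differed between the populations. Each line gives the 250 bases before the transcription start from RefSeq on GRCm38.p6, 5′ to 3′ in the direction of the gene. Capitals mark GAGGAA, the letters searched for as a PU.1-type motif on both strands. Flt3 lies on the minus strand at chr5:147400490-147400739, Kit on the plus strand at chr5:75574737-75574986 for the first of 2 listed starts, and Csf2ra on the minus strand at chr19:61228419-61228668.
Flt3: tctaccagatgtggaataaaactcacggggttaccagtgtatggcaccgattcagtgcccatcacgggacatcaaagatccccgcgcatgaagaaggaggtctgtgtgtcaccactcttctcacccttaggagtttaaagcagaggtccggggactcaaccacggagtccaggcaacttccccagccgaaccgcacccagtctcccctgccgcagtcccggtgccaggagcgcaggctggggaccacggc
Kit: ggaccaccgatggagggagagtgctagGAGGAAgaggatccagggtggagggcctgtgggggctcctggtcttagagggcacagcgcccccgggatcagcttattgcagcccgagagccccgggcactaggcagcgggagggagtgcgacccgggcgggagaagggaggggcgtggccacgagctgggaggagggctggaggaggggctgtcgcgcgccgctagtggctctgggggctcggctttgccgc
Csf2ra: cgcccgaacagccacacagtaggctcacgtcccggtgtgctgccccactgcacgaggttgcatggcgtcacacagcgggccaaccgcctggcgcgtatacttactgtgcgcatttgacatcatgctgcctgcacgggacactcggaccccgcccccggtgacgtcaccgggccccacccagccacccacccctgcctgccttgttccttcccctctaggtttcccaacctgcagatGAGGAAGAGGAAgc

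The Csf2ra window held 2 copies of GAGGAA, which begin 14 and 8 bases before the start and do not overlap. The Kit window held 1 copy, 223 bases before the start, and the Flt3 window held 0. The Csf3r window, not printed, held 1 copy at 86 bases before the start. No window was searched for Csf1r or Csf2rb. The same motif was found in 23.3% of 32851 promoters of this length. The RUNX-type letters TGTGGT occurred in 14% of them and the GATA-type letters AGATAA in 9.99%, and neither was found on either strand in the windows of Flt3, Kit, Csf2ra or Csf3r. These matches describe letters in a window and were not tested as binding sites.

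The population labels were set against marker genes. All 6 natural killer cell markers tested (among them Gzma, Klrd1 and Ncr1) were higher in IKDC than in cDC and than in PDC, and all 6 plasmacytoid markers were higher in PDC than in cDC. Of 6 conventional dendritic cell markers, 4 were lower in IKDC than in cDC. Among all genes tested, 3.5% were called higher and 4.07% lower in IKDC than in cDC. The shares were 2.25% and 2.75% in PDC against cDC, and 2.71% and 3.17% in IKDC against PDC. Itgax, which encodes CD11c, had signals of 1249 and 1359 in IKDC against 1556 and 2614 in cDC. Zbtb46, a transcription factor of conventional dendritic cells, had 20.9 and 21.6 in IKDC and 30.8 and 10.3 in PDC, all under the minimum of 60, against 82.6 and 127.2 in cDC. Erythroid markers were higher in IKDC for 6 of 6 genes and in PDC for 5 of 6 against cDC, with summed U74A signals of 15002 to 17935 in IKDC, 9864 to 23089 in PDC and 814.5 to 1778 in cDC. Of 5 B cell markers, Igha alone passed, higher in both IKDC and PDC than in cDC. The sums were 4830 to 7654, 3056 to 7520 and 633.8 to 821.7 in IKDC, PDC and cDC. Igha made up most of the sums in IKDC and PDC. It had 5909 and 4205 in IKDC, 6474 and 2615 in PDC, and 190.1 and 226.6 in cDC. The 3′ to 5′ ratio of Gapdh, a sign of RNA length after amplification, was 3.34 and 3.59 in IKDC, 6 and 3.19 in PDC, and 4.74 and 4.13 in cDC. The part of these in the results below was not tested.

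Of the 6 receptor genes, each represented by its brightest tested probe set, 4 were lower and 0 higher in IKDC than in cDC. Flt3, Csf2rb, Csf1r and Csf2ra fell. Among all 12193 genes tested, 4.07% were called lower and 3.5% higher in that comparison. In PDC against cDC, 2 receptor genes (Csf1r and Kit) were lower and 0 higher, where 2.75% of all genes were called lower and 2.25% higher. In IKDC against PDC, 2 (Flt3 and Csf2rb) were lower and 1 (Kit) higher, where 3.17% of all genes were called lower and 2.71% higher. A call is an adjusted p under 0.05 from limma, with the Benjamini-Hochberg adjustment over all 23285 probe sets tested. At an unadjusted p under 0.05 limma gave 0 receptor genes higher and 4 lower in IKDC against cDC, 0 and 3 in PDC against cDC, and 1 and 4 in IKDC against PDC. At that threshold the higher and lower shares of all genes were 11.6% and 10.9% in IKDC against cDC, 8.33% and 9.05% in PDC against cDC, and 9.35% and 7.91% in IKDC against PDC. Csf3r was not called in any of the 3 comparisons.

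**Figure D1:**
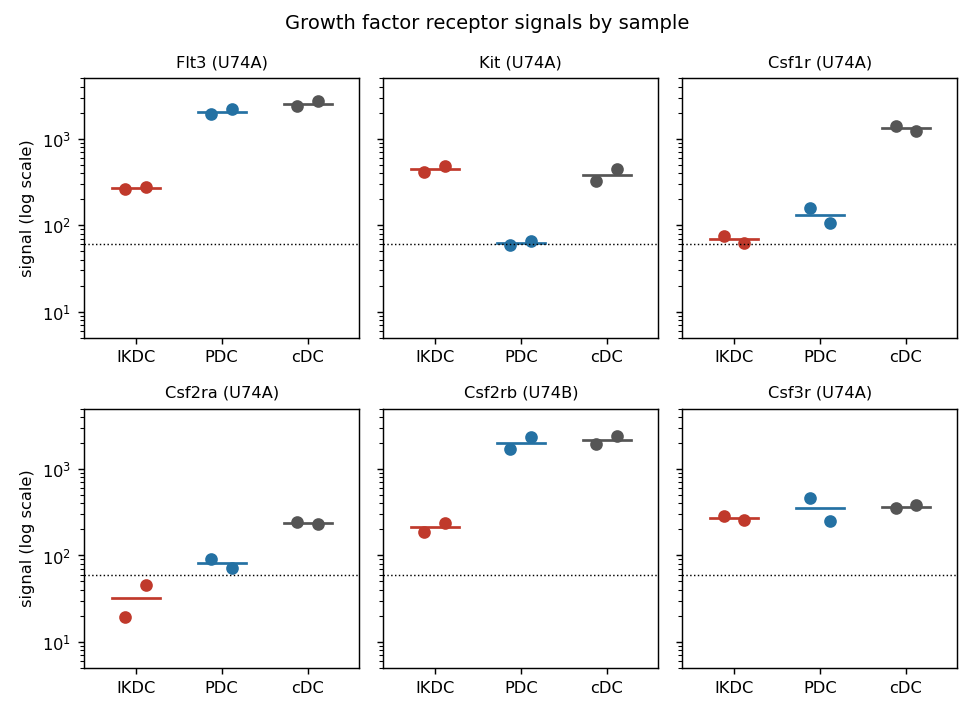
Deposited signal (log axis) of the brightest tested probe set of each receptor gene in IKDC, PDC and cDC. Points are the 2 samples of a population, short lines their mean, and the dotted line is the minimum of 60 used to filter low signals. Flt3 and Csf2rb were low in IKDC alone, Kit in PDC alone, and Csf1r was high in cDC alone.

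Flt3, the receptor that dendritic cell precursors need for FLT3 ligand, had signals of 260.9 and 278.1 in IKDC, 1918 and 2219 in PDC, and 2388 and 2705 in cDC in its brighter probe set on U74A. Both IKDC samples lay far below all 4 others, and the PDC samples lay just below the cDC samples without overlap. The IKDC level was 8.96-fold lower than that of cDC on the log2(signal + 16) scale, a log2 difference of -3.16 ± 0.26 (SE, adjusted p = 3.77e-05). It was 7.29-fold lower than that of PDC (-2.87 ± 0.26, adjusted p = 7.45e-05). PDC and cDC did not differ beyond the test, with a log2 difference of -0.30 and a 95% confidence interval of -0.86 to 0.27 (adjusted p = 0.695). In these bulk samples, fewer cells that carry the transcript and less of it per cell cannot be told apart.

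The other Flt3 probe set, also on U74A and with a suffix that marks relaxed probe selection, gave the same order at dimmer signals. It had 123.5 and 141 in IKDC, 280 and 211.7 in PDC, and 418.3 and 304.6 in cDC, and no population overlapped another. Its log2 difference between IKDC and cDC was -1.33 ± 0.30 (adjusted p = 0.0256), smaller than that of the brighter probe set. This call ended when either IKDC sample or either cDC sample was left out, with adjusted p from 0.0669 to 0.2. The differences of IKDC from PDC (-0.81, adjusted p = 0.217) and of PDC from cDC (-0.52, adjusted p = 0.498) did not pass.

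Kit, the stem cell factor receptor, followed another order. It had signals of 418.7 and 481.4 in IKDC, 59.9 and 66.4 in PDC, and 322.1 and 446.6 in cDC. The PDC samples stood at the minimum of 60, well below the other 4, while the IKDC and cDC samples overlapped. Kit was 5.88-fold higher in IKDC than in PDC (log2 difference 2.56 ± 0.30, adjusted p = 0.000403). It was 5.0-fold lower in PDC than in cDC (-2.32 ± 0.30, adjusted p = 0.00106). Between IKDC and cDC the log2 difference was 0.23, with a 95% confidence interval of -0.42 to 0.88 (adjusted p = 0.732).

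Markers of other cells that carry Kit were read beside it. Of 7 mast cell and basophil genes on U74A, 5 had both samples under 60 in IKDC (Cpa3, Fcer1a, Hdc, Mcpt8 and Ms4a2), and 3 of these (Cpa3, Fcer1a and Ms4a2) were also under 60 in both cDC samples. Ms4a2 has a further probe set on U74C, with 298.1 and 69.5 in IKDC, 232.9 and 252.6 in PDC, and 103.5 and 81.2 in cDC. All lay above 60, but unspiked controls on U74C reached 148.7, above the second IKDC sample and both cDC samples. This probe set passed in no comparison. Summed on U74A, the 7 reached 564.7 to 692.3 in IKDC, 365.3 to 560.4 in PDC and 329.8 to 352 in cDC. Cma1, annotated as mast cell chymase, was the 1 of 3 tested genes of that list that passed, with 515.2 and 359.1 in IKDC, 218.6 and 204.7 in PDC, and 65.8 and 89.8 in cDC. It was higher in IKDC and in PDC than in cDC, while its other 2 probe sets stayed at or under 44.4. Among all genes, 3.5% were called higher in IKDC and 2.25% in PDC than in cDC. Tpsb2, a mast cell gene of that list, lay above 60 in every sample in its brighter probe set and passed in no comparison. Its signals there were 83.6 and 120 in IKDC, 120 and 91.7 in PDC, and 183.9 and 62.9 in cDC. Of 6 progenitor genes on U74A, Cd34, Meis1 and Tal1 were under 60 in both samples of every population. Gata2 lay above 60 in every sample in its brighter probe set and passed in no comparison. It had 107.7 and 125.3 in IKDC, 191.5 and 113.1 in PDC, and 157.4 and 159.6 in cDC, while its other probe set was at most 24.1. A brighter Meis1 probe set on U74C had 156.8 and 56.5 in IKDC, 68.6 and 148 in PDC, and 347.1 and 193.4 in cDC and passed in no comparison. Its second IKDC sample and both PDC samples lay under the 148.7 of the unspiked controls. The other Meis1 probe set on U74C was at most 37.1. On U74A the 6 summed to 162.4 to 201 in IKDC, 229.8 to 383.3 in PDC and 515.3 to 589.8 in cDC. The progenitor gene Procr was lower in IKDC and in PDC than in cDC, the 1 call among 3 tested. Among all genes, 4.07% were called lower in IKDC and 2.75% in PDC than in cDC. The part of mast cell, progenitor or erythroid RNA in the Kit signal was not tested.

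Csf1r, the M-CSF receptor of monocytes, macrophages and part of the dendritic cell lineage, was high in cDC alone. Its brighter probe set on U74A had signals of 75.3 and 62.3 in IKDC, 158.4 and 107.2 in PDC, and 1406 and 1237 in cDC. Every IKDC and PDC sample lay far below both cDC samples, and the IKDC samples lay just below the PDC samples. Csf1r was 15.8-fold lower in IKDC than in cDC (log2 difference -3.98 ± 0.30, adjusted p = 3.08e-05). It was 9.11-fold lower in PDC than in cDC (-3.19 ± 0.30, adjusted p = 0.00017). Between IKDC and PDC the log2 difference was -0.79, with an interval of -1.45 to -0.13 before adjustment over probe sets, and it did not pass (adjusted p = 0.223).

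The other Csf1r probe set, again on U74A and of relaxed probe selection, did not show this order. It had 54.1 and 54.7 in IKDC, 128 and 31.5 in PDC, and 14.5 and 90.8 in cDC, so the cDC samples enclosed the IKDC samples. None of its 3 comparisons passed (adjusted p = 0.855, 0.929 and 0.798 for IKDC against cDC, IKDC against PDC and PDC against cDC). With both tested Csf1r probe sets averaged, the difference of PDC from cDC was -1.33 and no longer passed (adjusted p = 0.101).

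Most markers of monocytes and macrophages were also lower in IKDC than in cDC. Of 8 tested, 7 were lower in IKDC and 4 lower in PDC than in cDC, and 2 (Cd14 and Cd68) were lower in IKDC than in PDC. In these comparisons 4.07%, 2.75% and 3.17% of all genes were called lower. Sums on U74A, from each gene's brightest probe set there, were 2250 to 3278 in IKDC, 4218 to 5470 in PDC and 5042 to 6800 in cDC. Ccr2 was the brightest gene of the sum in both IKDC samples. Ms4a6c entered with a U74A probe set, not with the U74C one counted above. That U74A set had 296.8 and 403 in IKDC, 102.6 and 157 in PDC, and 466.2 and 1331 in cDC. Adgre1, which encodes F4/80, had 6.6 and 6.5 in IKDC, 16.4 and 9.7 in PDC, and 194.5 and 278 in cDC. The complement gene C1qa had 15.9 and 16.8 in IKDC, 15.9 and 16.3 in PDC, and 312.1 and 394.3 in cDC. Adgre1 and C1qa passed the filter on low signals through their cDC samples alone. Other markers went against the order of Csf1r without passing the test. Ccr2, a chemokine receptor, had 1517 and 2453 in IKDC, 2008 and 2757 in PDC, and 944 and 1641 in cDC. Its log2 differences from cDC were 0.63 in IKDC and 0.91 in PDC (adjusted p = 0.371 and 0.232). Cd68 had a log2 difference of 0.95 in PDC against cDC (adjusted p = 0.108). The part of macrophages or monocytes in the Csf1r signal was not tested.

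Csf2ra, the chain that binds GM-CSF, had signals of 19.3 and 45.8 in IKDC, 91.7 and 71.9 in PDC, and 240.9 and 230 in cDC on U74A. The populations did not overlap, but both IKDC samples were under 60 and have no order below that level. Taking 60 as the IKDC level, Csf2ra was at least 3.92-fold lower in IKDC than in cDC, with a fitted log2 difference of -2.43 ± 0.38 (adjusted p = 0.00271). In PDC against cDC the log2 difference was -1.37 ± 0.38 and did not pass (adjusted p = 0.0812). It passed with a pseudocount of 64 in place of 16 (-1.04, adjusted p = 0.0334). The difference between IKDC and PDC did not pass (-1.06, adjusted p = 0.187).

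Csf2rb, the common beta chain that GM-CSF, interleukin-3 and interleukin-5 receptors share, had signals of 188.7 and 240.4 in IKDC, 1716 and 2325 in PDC, and 1970 and 2385 in cDC on U74B. The IKDC samples lay far below, and the PDC and cDC samples overlapped. Csf2rb was 9.53-fold lower in IKDC than in cDC (log2 difference -3.25 ± 0.26, adjusted p = 8.3e-05). It was 8.79-fold lower in IKDC than in PDC (-3.14 ± 0.26, adjusted p = 0.000108). The log2 difference of PDC from cDC was -0.12, with an interval of -0.69 to 0.46 (adjusted p = 0.905).

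The U74A probe set of Csf2rb stayed under 60 on every array and was not tested. Its signals were 8.8 and 11 in IKDC, 19.7 and 14.6 in PDC, and 19.5 and 14.1 in cDC. A further probe set annotated to both Csf2rb and Csf2rb2 is no member. It had 13.2 and 55.4 in IKDC, 78.2 and 64.9 in PDC, and 45.2 and 21.6 in cDC, and passed in no comparison. Csf2rb2 encodes the mouse beta chain specific for interleukin-3. As its sequence is close to that of Csf2rb, cross-hybridisation between them was not tested.

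Csf3r, the G-CSF receptor best known from neutrophils, passed in no comparison. Its tested probe set on U74A had 283.3 and 259.8 in IKDC, 462.7 and 251.2 in PDC, and 356.3 and 380.8 in cDC. The 2 PDC samples enclosed all others, and both IKDC samples lay below both cDC samples. The log2 differences were -0.42 for IKDC against cDC (interval -1.13 to 0.29, adjusted p = 0.535), -0.10 for PDC against cDC (-0.81 to 0.60, adjusted p = 0.936) and -0.32 for IKDC against PDC (-1.02 to 0.39, adjusted p = 0.741). These intervals do not show equal levels.

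The other Csf3r probe sets were too dim to test. For the brighter of them the signals were 9.7 and 14.7 in IKDC, 24 and 13.5 in PDC, and 32.3 and 71.2 in cDC. For the dimmer one they were 6 and 6.5 in IKDC, 19.9 and 6.7 in PDC, and 24.6 and 36.5 in cDC. In both sets the cDC samples lay above all others, at levels where 11 of the 12 signals were under 60. In the tested probe set they lay above the IKDC samples but not above the first PDC sample. Of 6 tested neutrophil genes, Camp and Ltf were lower in IKDC than in cDC and none passed in the other comparisons. Across all genes, 4.07% were called lower in IKDC than in cDC. Ltf passed the filter on low signals through its cDC samples alone. Summed over all 8 listed neutrophil genes, tested or not, the signals were 406.8 to 423.8 in IKDC, 371.1 to 1073 in PDC and 1064 to 2850 in cDC. The untested gene Ngp had 42.3 in the first cDC sample and 955.3 in the second. The part of neutrophil RNA in the dim Csf3r signals was not tested.

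**Figure D2:**
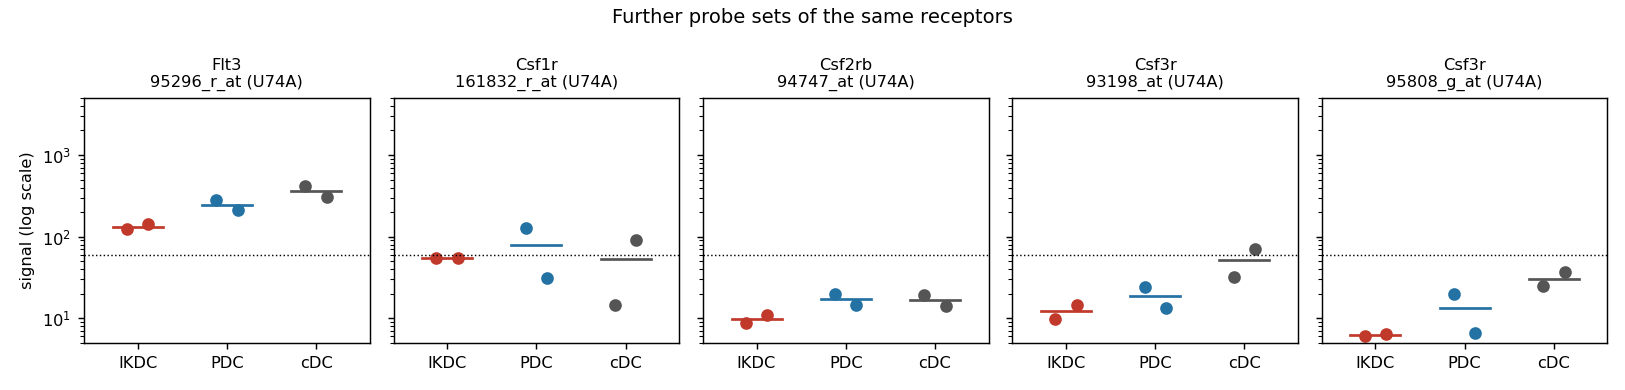
Signal (log axis) of the 5 further probe sets of Flt3, Csf1r, Csf2rb and Csf3r, drawn as in the plot of the brightest probe sets. The Flt3 set keeps the order IKDC, PDC, cDC, the Csf1r set has overlapping samples, and the Csf2rb set and both Csf3r sets lie near or below the minimum of 60 (dotted line).

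**Figure D3:**
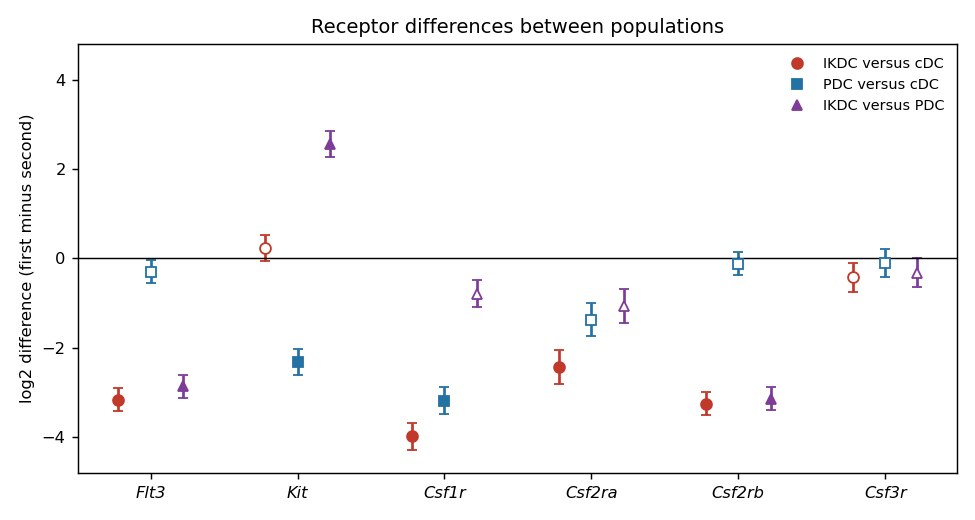
Log2 difference with its SE for the 6 receptor genes in IKDC minus cDC (circles), PDC minus cDC (squares) and IKDC minus PDC (triangles), each from 2 samples a population. Filled symbols passed an adjusted p of 0.05. Flt3 and Csf2rb lie near -3 in both IKDC comparisons, and Kit is the 1 gene with a positive called difference (2.56).

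Orders of means are given for the brightest tested probe sets, and the dimmer sets of Csf1r and Csf2rb did not keep them. From highest to lowest the order was cDC, PDC, IKDC for Flt3, Csf1r, Csf2ra, Csf2rb and Csf3r. Within that order PDC and cDC did not differ beyond the test for Flt3, Csf2ra, Csf2rb and Csf3r, and IKDC and PDC did not for Csf1r, Csf2ra and Csf3r. For Kit the order was IKDC, cDC, PDC, and IKDC and cDC did not differ beyond the test. No level is compared between different probe sets, since their probes bind with different strength. Ranked over the 12193 genes by log2 difference in IKDC against cDC, Csf1r stood at place 32 from the lowest, Csf2rb at 86, Flt3 at 92 and Csf2ra at 200. In PDC against cDC, Csf1r stood at 45 and Kit at 135 from the lowest. In IKDC against PDC, Csf2rb stood at 76 and Flt3 at 93 from the lowest, and Kit at 93 from the highest.

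The genes most like each receptor were those with the smallest root mean square difference of centred log2 values over the 6 samples, on the same array type. The points share the population structure of 3 groups of 2, so the likeness is a description. For Flt3 they were Napsa (an aspartic protease, 0.31), Ctsz (cathepsin Z, 0.31) and Evi2a (0.34), among 2671 genes. Napsa had 700.3 and 605.8 in IKDC, 4107 and 3087 in PDC, and 5969 and 4718 in cDC. For Csf1r they were Adgre1 (0.31), Batf3 (a transcription factor of cross-presenting dendritic cells, 0.33) and Cd300c2 (0.34). Batf3 had 83.2 and 77.3 in IKDC, 112.4 and 59.3 in PDC, and 1124 and 1099 in cDC.

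For Kit the closest genes were Pglyrp1 (a peptidoglycan recognition protein, 0.29), Acot7 (an acyl-CoA thioesterase, 0.31) and Otulinl (0.31). Pglyrp1 had 201.3 and 252.2 in IKDC, 25.5 and 50.1 in PDC, and 157.8 and 174.7 in cDC. For Csf2ra they were Rogdi (0.18), the class I-like gene H2-M2 (0.27) and Ebi3, a subunit of interleukin-27 and interleukin-35 (0.27). For Csf2rb, among 2693 genes on U74B, they were Tns3 (a tensin, 0.30), Cdc42bpb (a kinase, 0.34) and Ogfrl1 (0.35). Tns3 had 82.7 and 78 in IKDC, 733.8 and 848.8 in PDC, and 1288 and 1316 in cDC. For Csf3r, whose own signal varied little, Zfp385a (0.07), C1qtnf1 (0.08) and Dhx15 (0.10) were closest, and each had its highest signal in the first PDC sample, as Csf3r did.

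The ligands of these receptors were mostly dim. Of 10 listed, 9 had a probe set and 4 were tested. Across all genes, 3.5% were called higher in IKDC than in cDC. Flt3l, which encodes FLT3 ligand, was the 1 that passed, higher in IKDC than in cDC, with 91.3 and 97.3 in IKDC, 91.7 and 50.3 in PDC, and 8.9 and 14.9 in cDC. With cDC set at 60, it was at least 1.57-fold higher in IKDC (log2 difference 1.99 ± 0.44, adjusted p = 0.0231). The call ended without any 1 of the IKDC or cDC samples (adjusted p from 0.074 to 0.219). Csf2, which encodes GM-CSF, reached 60 on 1 array and was not tested, with 59 and 85.2 in IKDC, 13.2 and 4.2 in PDC, and 15.1 and 6 in cDC. Kitl, encoding stem cell factor, was at most 22 in any sample. The median log2 difference of the 4 tested ligands was -0.43 in IKDC against cDC, -0.10 in PDC against cDC and -0.10 in IKDC against PDC, beside medians over all genes of 0.0126, -0.000446 and 0.00521.

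Among 12 related receptors, 11 had a probe set and 7 were tested. In IKDC against cDC, 1 (Il7r) was higher and 2 (Csf2rb2 and Il6ra) lower. In PDC against cDC, 2 (Il7r and Lifr) were higher and 0 lower, and in IKDC against PDC, 0 were higher and 3 (Csf2rb2, Il7r and Lifr) lower. Medians of the 7 were -0.36, 0.65 and -0.99 in these 3 comparisons. In the same order, 3.5%, 2.25% and 2.71% of all genes were called higher and 4.07%, 2.75% and 3.17% lower. Lifr, the leukaemia inhibitory factor receptor, was at least 16.5-fold lower in IKDC than in PDC (adjusted p = 3.01e-05) and at least 16.5-fold higher in PDC than in cDC (adjusted p = 8.99e-05). It had 25.4 and 25 in IKDC, 729.8 and 1342 in PDC, and 31.9 and 42.5 in cDC. Lifr passed the filter on low signals through its PDC samples alone, so the filter itself favoured a difference in that direction.

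Csf2rb2, the interleukin-3 beta chain, had 29.1 and 70.9 in IKDC, 481.1 and 1081 in PDC, and 240.3 and 201.1 in cDC. PDC were highest and IKDC lowest, with no overlap. It was 11.8-fold lower in IKDC than in PDC (log2 difference -3.56 ± 0.42, adjusted p = 0.000469). Its difference from cDC was -1.91 ± 0.42 in IKDC (adjusted p = 0.0218, from 0.0959 to 0.195 without the first IKDC sample or either cDC sample, 0.0743 with median centring and 0.0508 without the trend) and 1.65 ± 0.42 in PDC (adjusted p = 0.0596), which passed under 7 of 16 alternatives. The alpha chains of the interleukin-3 and interleukin-5 receptors, Il3ra and Il5ra, were at most 33.4 and 4 in any sample and were not tested.

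Il7r, the interleukin-7 receptor, had 267.1 and 349.3 in IKDC, 759 and 1537 in PDC, and 91.8 and 114 in cDC. It was 9.27-fold higher in PDC than in cDC (adjusted p = 0.000415). Its differences in IKDC, 1.44 against cDC (adjusted p = 0.0361) and -1.77 against PDC (adjusted p = 0.0141), were lost when single samples were left out. The first call ended without any 1 IKDC or cDC sample (adjusted p from 0.11 to 0.256), the other without either IKDC sample or the second PDC sample (0.058 to 0.141). Both ended with median centring (0.06 and 0.0699), and the first also with a pseudocount of 64 (0.0554) and without the trend (0.0763). Il6ra, the interleukin-6 receptor, had 43.3 and 64.3 in IKDC, 109.3 and 133.6 in PDC, and 861.2 and 186.2 in cDC. Its log2 difference of -2.61 in IKDC against cDC (adjusted p = 0.0161) ended without either IKDC sample or the first cDC sample (0.0511 to 0.115).

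Of 20 tested signalling genes downstream of these receptors, 1 (Stat3) was higher and 1 (Socs2) lower in IKDC than in cDC, 0 were higher and 2 (Socs2 and Pim1) lower in PDC than in cDC, and 1 (Stat3) was higher and 1 (Ptpn6) lower in IKDC than in PDC. Their medians were -0.27, -0.52 and 0.28. Among all genes, 3.5%, 2.25% and 2.71% were called higher and 4.07%, 2.75% and 3.17% lower in these comparisons. Stat3, a transcription factor that G-CSF and FLT3 signals activate, had 2003 and 2025 in IKDC, 837.4 and 842 in PDC, and 465.5 and 694.5 in cDC. It was 3.47-fold higher in IKDC than in cDC (adjusted p = 0.00351, 0.0641 without the intensity trend). Against PDC it was 2.37-fold higher (adjusted p = 0.0311), a call that ended under 8 of 16 alternatives. These were each IKDC or PDC sample left out (0.104 to 0.191), no filter and median centring (both 0.0612), no trend (0.216) and adjustment within the array type (0.0915).

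Socs2, a feedback inhibitor of cytokine receptors, was highest in cDC, with 51.3 and 47.4 in IKDC, 87.1 and 39.2 in PDC, and 214.7 and 322.9 in cDC. It was at least 4.39-fold lower in IKDC than in cDC (adjusted p = 0.00871, from 0.0595 to 0.115 without either IKDC sample or the second cDC sample). In PDC it was 3.71-fold lower (adjusted p = 0.0213, from 0.0731 to 0.221 without the second PDC sample or either cDC sample). Pim1, a kinase gene induced by STAT5, was 3.80-fold lower in PDC than in cDC (adjusted p = 0.0415), a call that ended under 8 of 16 alternatives. These were the same samples left out (0.19 to 0.215), a pseudocount of 1 (0.0534), no filter (0.051), quantile normalization (0.0707), median centring (0.0649) and no trend (0.102). Ptpn6, which encodes the phosphatase SHP-1, was 2.90-fold lower in IKDC than in PDC (adjusted p = 0.0161, from 0.0502 to 0.181 without either IKDC sample or the second PDC sample, 0.0865 with median centring and 0.0543 without the trend).

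Of 13 tested transcription factors known to control receptor genes of this kind, 3 were higher (Myb, Gfi1 and Ikzf1) and 3 lower (Spi1, Cebpa and Irf8) in IKDC than in cDC. In PDC against cDC, 2 were higher (Myb and Irf8) and 2 lower (Spi1 and Runx1). In IKDC against PDC, 2 were higher (Runx1 and Gfi1) and 2 lower (Lmo2 and Irf8). Their medians were -0.40, -0.18 and -0.07. The shares of all genes called were 3.5%, 2.25% and 2.71% higher and 4.07%, 2.75% and 3.17% lower. The calls of Irf8 and Gfi1 in IKDC against cDC ended without any 1 IKDC or cDC sample, with adjusted p from 0.0764 to 0.211 for Irf8 and from 0.0955 to 0.331 for Gfi1. That of Irf8 also ended without a filter (0.0784), with median centring (0.0767) and without the trend (0.0737), and that of Gfi1 with a pseudocount of 1 (0.0753).

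Spi1, which encodes PU.1, had 50.3 and 86.2 in IKDC, 147.5 and 167 in PDC, and 758.8 and 616.5 in cDC. The populations stood in the order cDC, PDC, IKDC without overlap. The share of all genes with this order was not counted. For Spi1 the first IKDC signal was under 60, and the difference of IKDC from PDC did not pass (-1.07, adjusted p = 0.0991). Spi1 was 8.50-fold lower in IKDC than in cDC (log2 difference -3.09 ± 0.32, adjusted p = 0.00019). In PDC it was 4.05-fold lower than in cDC (adjusted p = 0.00443, 0.0611 without the first cDC sample). Cebpa, a myeloid regulator, had 98.5 and 122.4 in IKDC, 148.7 and 173.9 in PDC, and 347.1 and 350.7 in cDC. It was 2.90-fold lower in IKDC than in cDC (adjusted p = 0.00938, from 0.0599 to 0.123 without any 1 IKDC or cDC sample).

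Runx1, a regulator of haematopoietic genes, was low where Kit was low, with 171.6 and 219.4 in IKDC, 42.7 and 34.9 in PDC, and 178.9 and 276.4 in cDC. Unspiked controls on U74B reached 122.7, above both PDC samples, so its bounds are set against that level. It was at least 1.58-fold higher in IKDC than in PDC (adjusted p = 0.0212, from 0.0636 to 0.2 without either IKDC sample or the second PDC sample, 0.053 with those populations alone in the fit). In PDC it was at least 1.81-fold lower than in cDC (adjusted p = 0.0161, from 0.0552 to 0.16 without the second PDC sample or either cDC sample). Myb, a progenitor factor, had 658.9 and 503.3 in IKDC, 119.9 and 346 in PDC, and 33.5 and 62.7 in cDC. Its first cDC signal was under 60 and the other just above, so the size of its folds against cDC is uncertain. Myb was 9.49-fold higher in IKDC than in cDC (adjusted p = 0.00113). In PDC it was 3.55-fold higher than in cDC (adjusted p = 0.0446), a call that ended without any 1 sample other than the first PDC sample (0.0644 to 0.281), and under 11 of its 16 alternatives in all.

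Irf8, which plasmacytoid and part of conventional dendritic cells need, had 1668 and 1580 in IKDC, 8841 and 8504 in PDC, and 3710 and 3269 in cDC. It was 5.30-fold lower in IKDC than in PDC (adjusted p = 0.000247) and 2.48-fold higher in PDC than in cDC (adjusted p = 0.0157, from 0.0546 to 0.0925 without any 1 PDC or cDC sample, 0.0539 without the trend). Lmo2, an adaptor in haematopoietic transcription factor complexes, was 2.84-fold lower in IKDC than in PDC (adjusted p = 0.0161, from 0.0662 to 0.142 without either IKDC sample or the second PDC sample, 0.0705 with median centring). Gfi1, a transcriptional repressor, had 152.5 and 104.5 in IKDC, 14.3 and 6.1 in PDC, and 12.2 and 14.6 in cDC. It passed the filter on low signals through its IKDC samples alone, so the filter itself favoured a difference in that direction. Gfi1 was at least 2.10-fold higher in IKDC than in PDC (adjusted p = 0.0171), a call that ended without either IKDC sample. Ikzf1, a lymphoid regulator, was 2.81-fold higher in IKDC than in cDC (adjusted p = 0.0102, from 0.0508 to 0.109 without either IKDC sample or the first cDC sample, 0.0692 without the trend).

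**Figure D4:**
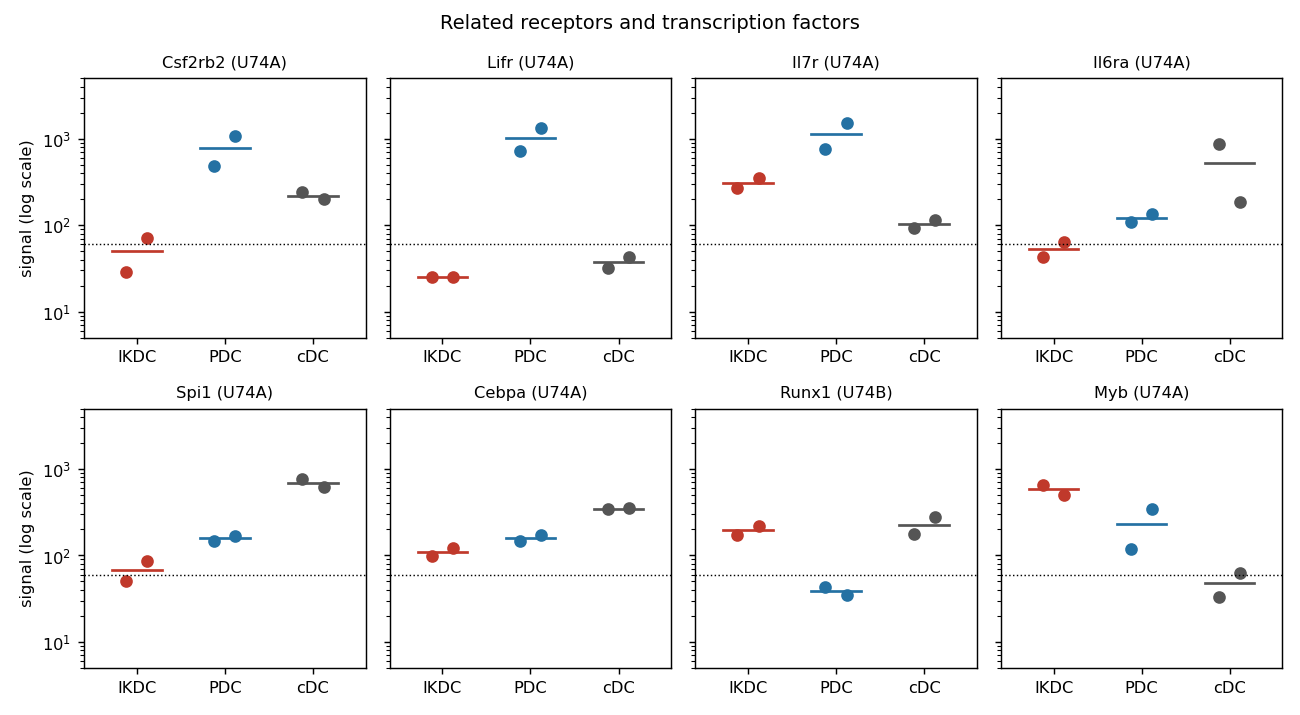
Signal (log axis) by sample of 4 related receptors (upper row) and 4 transcription factors (lower row) in IKDC, PDC and cDC, drawn as in the plot of the receptor genes. Lifr, Il7r and Csf2rb2 are highest in PDC, Spi1 and Cebpa in cDC, Myb in IKDC, and Runx1 is lowest in PDC.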

How the data were processed

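Total RNA was amplified in 2 rounds and labelled as antisense cRNA, per the labels' protocols. From the scans the authors made linear signal intensities with GCOS 1.1.1 at default settings, with every array scaled to 150, as stated per the labels. MAS 5 is named in the submitters' processing notes. No detection calls were used. Precision is limited by the number of arrays. Here signals became log2(signal + 16). Probe sets that reached 60 on 2 or more of a type's 6 arrays were fitted with limma 3.58.1 (R 4.3.3; lmFit, eBayes with trend), each array type alone, all populations in 1 model, and p-values were adjusted over 23285 probe sets. The signals of all 15 unspiked control probe sets on U74A stayed under 60, with a maximum of 45.2, but those on U74B reached 122.7 (88.9% under 60) and those on U74C 148.7 (75.6% under 60). Median signals were 51.7 to 87.2. Probe sets with 1 symbol numbered 29131, with several 724 and with no symbol listed 6846. A gene was represented by its tested probe set with the highest mean signal. Where both samples of a group were under 60, folds are bounds against 60, or on U74B against 122.7, a level chosen after seeing the data. These bounds use geometric means without a pseudocount, carry no sampling error and can exceed the fitted fold. The members, gene lists and markers were chosen with earlier results of these data known. Named genes are all members, list genes past the threshold (up to 4 a list and comparison, by smallest adjusted p), marker examples, and the 3 genes most like each member. The fit was tested on simulated data. Alternatives changed the pseudocount, filter, normalization, adjustment, variance model, samples fitted, replicate block, and left out each sample.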

Additional observations from a re-analysis of the deposited data

How the results depend on the processing

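Over the alternatives run, the called differences of the brightest probe sets kept direction and call in all 3 comparisons: Flt3, Csf1r, Csf2rb and Csf2ra in IKDC against cDC, Csf1r and Kit in PDC against cDC, and Flt3, Csf2rb and Kit in IKDC against PDC. The receptor genes called numbered 4, 2 and 3 (IKDC against cDC, PDC against cDC, IKDC against PDC), also without each sample and with the replicate number as a block, except in PDC against cDC: 1 with the mean of a gene's probe sets (which ended the Csf1r call) and 3 with a pseudocount of 64 (which added Csf2ra). Without each sample in turn, the totals of called probe sets, 1305, 849 and 1036, ranged over 593 to 1656, 327 to 719 and 493 to 869. The labels do not say that a sample number marks a shared litter or day, so the main fit had no replicate block. Samples of the same number deviated together at correlations of -0.0862 to 0.235. These values do not tell whether such samples were prepared together. The replicate block gave totals of 1650, 1055 and 1223. Median centring moved the median of all probe sets to 0.107, 0.0377 and 0.0594 on the log2 scale; the call of the dimmer Flt3 probe set ended there (adjusted p = 0.0574) and without the variance trend (0.0527). Uncalled differences changed sign without 1 sample, and the cause was not tested. In IKDC against cDC the log2 differences without each sample ran from -0.60 to 1.21 for the dimmer Csf1r probe set and -0.48 to 0.11 for Runx1. In PDC against cDC they ran from -0.37 to 1.44 for the dimmer Csf1r probe set, -0.33 to 0.10 for Csf2rb, -0.52 to 0.32 for Csf3r and -0.41 to 0.045 for Gfi1. In IKDC against PDC they ran from -1.03 to 0.57 for the dimmer Csf1r probe set, -0.74 to 0.10 for Csf3r, -0.66 to 0.24 for Socs2 and -0.21 to 1.32 for Pim1.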
